A study of Rattus rattus with 8 samples.

Results

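The S100 genes encode small calcium-binding proteins of vertebrates, and 6 of them (S100a4, S100a6, S100a8, S100a9, S100a11 and S100b) were followed in hair follicles of rats exposed to a simulated blast. Their probes were those whose RefSeq accession on the array is a listed accession of an S100 gene. All 6 accessions had a probe, and the 7 probes found were among 30367 different probes on the array. Binding of calcium opens a face of an S100 protein through which it docks to its targets inside the cell, and some members are also released and bind receptors on other cells. In skin, calcium rises towards the surface and drives the maturation of keratinocytes, and most S100A genes lie in the cluster of genes for epidermal differentiation. Serum S100B is used in the clinic as a marker of brain injury, which makes the family of interest where a blast is directed at the head.

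Total RNA from whisker hair follicles of male Sprague-Dawley rats was labelled with the dye Cy3. Each of the 8 rats was hybridized to its own array. The sham control group comprised 3 rats (C1, C2 and C3) that received no shock wave and were labelled with a pressure of 0 kPa. The blast group comprised 5 rats, of which M2 and M3 were exposed to 145 kPa, H1 to 175 kPa, and XH1 and XH3 to 200 kPa. Exposure was a single pulse to the head under anaesthesia, follicles of a rat were pooled, and the observation period of each of these rats after exposure was not known. Values are log2 intensities after quantile normalization, and a level can be compared between rats for a probe but not between probes.

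One array stood apart in brightness before normalization. The median processed signal of its spots was 280.5 on the array of C1, against 90.88 (C2) to 179.9 (M2) on the others, and 73% of its spots were well above background, against 65.9% (M3) to 70.9% (M2). After normalization, the median correlation of an array with the other 7 across probes was 0.979 for C1 and lay between 0.974 and 0.983 for the others. Probes are not independent replicates in that measure. The values of the S100 genes are therefore given with C1 and without it.

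Each S100 gene had a probe well above background on all 8 arrays, and none of these 6 probes was saturated on any array. S100b had a second probe, with 10 spots, which was not well above background on any array. Its log2 intensity ranged from 2.27 to 3.34, and it carries no information on a difference. Spots of the brightest probe of a gene, 2 for each gene, differed within an array by 0.85 at most on the log2 scale, and this largest gap belonged to S100a9 on the array of C3.

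In the comparison of blast with sham control rats, which asks whether the exposure changed the transcript, no S100 gene passed the test. The count at an unadjusted p under 0.05 in limma was 0 of 6 genes, where 2.80% of all 30366 probes tested had such a p (850 probes). After Benjamini-Hochberg adjustment over all probes, 0 of the 6 genes and 0% of all probes were under 0.05. The adjusted p of every S100 gene in limma was 0.9999. By the analysis of variance that the methods name, the count at an unadjusted p under 0.05 was 0 of 6 as well, against 2.25% of the 30366 probes. The blast rats all lay above the sham control rats in 0 of the 6 genes and in 0.960% of the 30217 probes measured on all arrays, and all below them in 0 genes and in 1.04% of the probes. The estimate was below 0 for 5 genes and above 0 for 1. Over all 30366 probes it was below 0 for 14866 and above 0 for 15500. The median log2 fold change was -0.20 for the S100 genes, against 0.0045 over all probes. The balance among the S100 genes followed from C1. Without C1 the estimate was above 0 for each of the 5 genes and below 0 for S100b.

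**Figure D1:**
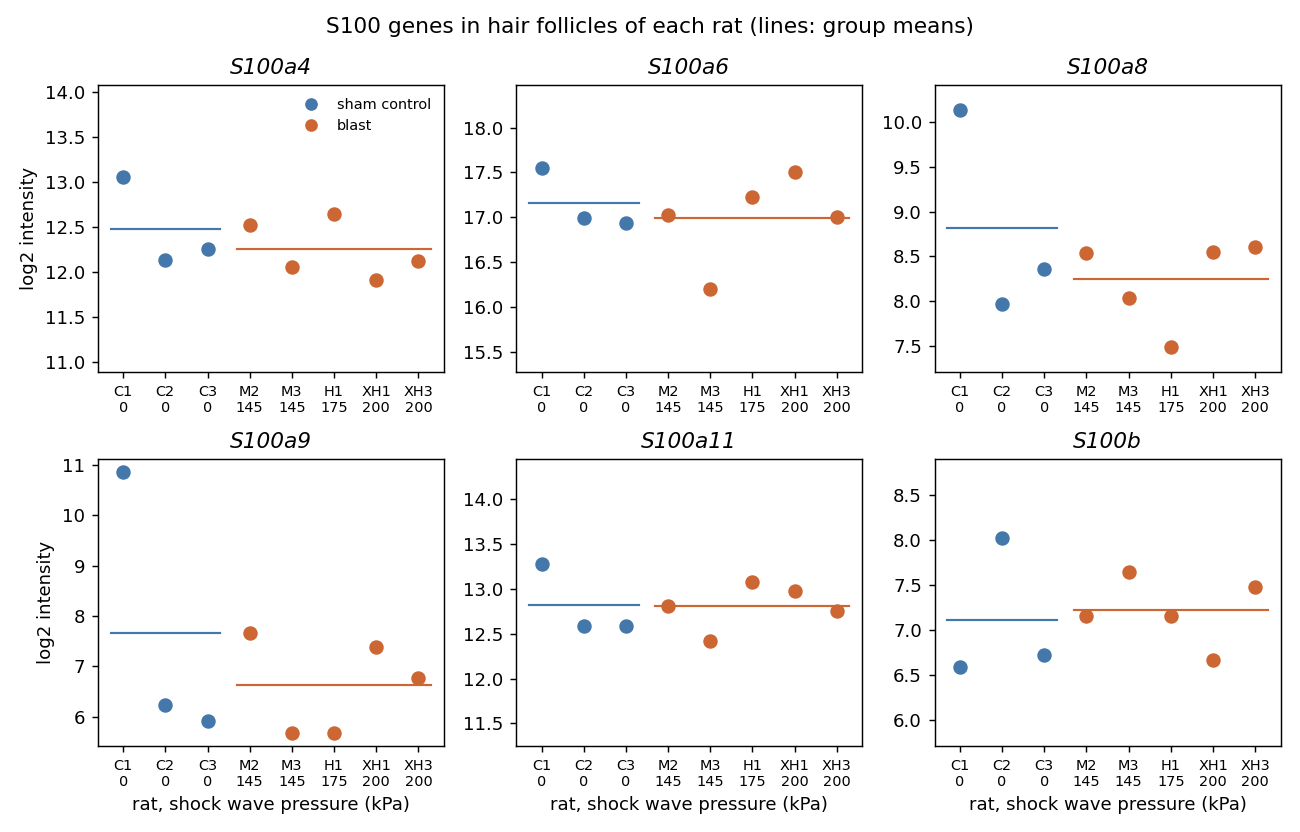
Log2 intensity of the brightest probe of each S100 gene (vertical axis) in each of the 8 rats, ordered by shock wave pressure in kPa (horizontal axis), with sham control rats in blue, blast rats in orange and lines at the group means. The groups overlap for all 6 genes, and C1 is the highest rat for 5 of them, with S100a9 at 10.86 in C1 and at 7.66 or less in the other rats.

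S100a8 and S100a9 encode the subunits of calprotectin, which neutrophils and monocytes carry in large amounts and which keratinocytes make in inflamed or wounded skin. S100a9 (NM_053587) had the widest spread of the family. Its log2 intensity was 10.86, 6.23 and 5.92 in the sham control rats C1, C2 and C3. In the blast group, M2, M3, H1, XH1 and XH3 were at 7.66, 5.67, 5.68, 7.38 and 6.77. C1 was far above all other rats, M2 and XH1 came next, and M3 and H1 were lowest, so the groups overlapped. The means were 7.67 ± 2.77 (SD, n = 3) and 6.63 ± 0.93 (SD, n = 5). The difference, blast minus sham control, was -1.04 on the log2 scale with a 95% confidence interval from -3.77 to 1.68, so that a blast level from 0.0735 to 3.2 times the sham control level lay within it (two-sided exact permutation p = 0.536). With C1 left out the estimate turned to 0.55 (standard error 0.63, two-sided exact permutation p = 0.476). Array quality weights in limma also turned it, to 0.10.

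The highest level of S100a8 (NM_053822) was again that of C1. The sham control rats C1, C2 and C3 were at 10.13, 7.97 and 8.36, and the blast rats M2, M3, H1, XH1 and XH3 at 8.54, 8.04, 7.49, 8.55 and 8.61. All 5 blast rats lay below C1, and 1 of them, H1, lay below all sham control rats. Blast minus sham control was -0.58 on the log2 scale, with a confidence interval from -1.78 to 0.62 (two-sided exact permutation p = 0.411), and it was 0.078 (standard error 0.35) without C1 and -0.14 with array quality weights. In follicle RNA, more cells that carry these transcripts and more transcript per cell cannot be told apart.

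The level of C1 was unusual for these transcripts among the probes of the array. For S100a9, C1 exceeded the next rat, M2, by 3.21 on the log2 scale, which is 9.24-fold. Among the 16873 probes well above background on all 8 arrays, 4 had a gap of this size or more between C1 and the next rat. Besides S100a9 these were XM_227368, NM_001106459 and NM_001013202, which were chosen after their values were seen and have no gene name here. For S100a8 the gap was 1.51, or 2.86-fold, and 58 of the probes had a gap as large. On the array of C1 the pair of S100a9 spots lay 0.012 apart on the log2 scale, and on the other arrays from 0.03 (M2) to 0.849 (C3), which measures spot noise within an array only.

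C1 was the highest rat for 5 of the 6 genes, all but S100b, while it was highest for 18.9% of the 16873 probes. With scaling to the 75th percentile it was highest for 4 of the 6 genes and 16.3% of the probes, S100a6 then being highest in XH1. With the log2 values deposited by the authors it was highest for 5 genes and 15.7%. With the main normalization, C1 was not the array most often at an extreme. M3 was highest for 23.5% of the probes and XH1 for 19.2%. M3 was lowest for 30.1%, H1 for 21.8% and C1 for 17.3%. The array of C1 was also the brightest before normalization, and the part of this in its S100 levels was not tested beyond these scalings.

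S100a4, S100a6 and S100a11 act mainly inside cells. S100a4 binds non-muscle myosin and is known from motile cells and fibroblasts. The log2 intensity of S100a4 (NM_012618) was 13.05, 12.13 and 12.25 in C1, C2 and C3, and 12.52, 12.05, 12.64, 11.91 and 12.12 in M2, M3, H1, XH1 and XH3. C1 was again highest, and M3, XH1 and XH3 lay below all sham control rats. The difference between blast and sham control was -0.23 on the log2 scale, with a confidence interval from -0.85 to 0.40 (two-sided exact permutation p = 0.446). It was 0.059 without C1.

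S100a6, or calcyclin, is found in epithelial cells and fibroblasts. The sham control rats were at 17.55, 16.99 and 16.94 for S100a6 (NM_053485), and M2, M3, H1, XH1 and XH3 were at 17.03, 16.20, 17.23, 17.50 and 17.01. M3 was the lowest rat, and XH1 came within 0.06 of C1. The log2 fold change was -0.17 (confidence interval -0.88 to 0.54, two-sided exact permutation p = 0.714). It was 0.03 without C1 and 0.033 without M3.

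S100a11, a partner of annexin A1 in keratinocytes, varied least among the 6 genes, with 0.85 between the highest and the lowest rat on the log2 scale, or 1.80-fold. Its values (NM_001004095) were 13.27, 12.59 and 12.59 in the sham control rats and 12.81, 12.42, 13.07, 12.97 and 12.75 in M2, M3, H1, XH1 and XH3. The group means were 12.82 ± 0.39 (SD, n = 3) and 12.80 ± 0.25 (SD, n = 5). The interval of the difference, from -0.52 to 0.50, holds a blast level between 0.695 and 1.41 times the sham control level, the narrowest range of the family. For this gene the sign of the estimate, -0.014, differed between processing choices, 75th percentile scaling (0.042) among them, and without C1 it was 0.21.

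S100b is known from glia, including the Schwann cells of nerves that reach the follicle, and from melanocytes. It differed from the other members in that C1 was its lowest rat. Its brightest probe (NM_013191) was at 6.59, 8.02 and 6.72 in C1, C2 and C3, and at 7.16, 7.65, 7.16, 6.67 and 7.48 in M2, M3, H1, XH1 and XH3. All 5 blast rats lay within the range of the sham control rats. The log2 fold change was 0.11 (confidence interval -0.76 to 0.98, two-sided exact permutation p = 0.821). It was -0.15 without C1 and 0.57 without C2, the highest rat. It was -0.086 without C3, and -0.11 when the left and right sides of the slide were fitted as blocks.

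**Figure D2:**
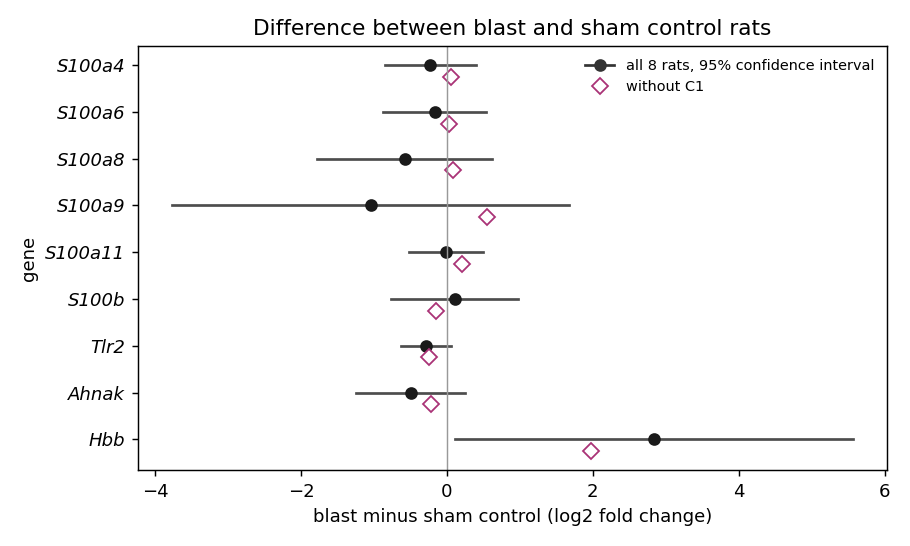
Log2 fold change of blast against sham control (horizontal axis) for the 6 S100 genes and for Tlr2, Ahnak and Hbb (vertical axis), as black points with 95% confidence intervals from limma over all 8 rats, and as open diamonds without C1. The intervals of the S100 genes all hold 0, the widest being that of S100a9 from -3.77 to 1.68, while that of Hbb runs from 0.11 to 5.57 with C1 and its point moves from 2.84 to 1.97 without C1, and each S100 point lies on the other side of 0 without C1.

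A trend with pressure, fitted over the 5 blast rats, asks whether a stronger shock wave went with a higher or lower level. At an unadjusted p under 0.05 in limma, 0 of the 6 genes had a slope, against 2.84% of the 30236 probes tested, and the limma-adjusted p was 0.9999 for each gene. For S100a9 the mean of the pair of rats at 145 kPa was 6.66, the rat at 175 kPa was at 5.68, and the mean at 200 kPa was 7.07. Its slope was 0.067 per 10 kPa on the log2 scale (confidence interval -0.38 to 0.51), and it was 0.27 without M2, -0.066 without M3 and -0.024 without XH1. The corresponding levels of S100a8 were 8.29, 7.49 and 8.58, and its slope was 0.047 per 10 kPa on the log2 scale, from 0.0093 without XH3 to 0.12 without M2. Both genes were thus lowest in H1 or level with the lowest rat, and the levels did not follow the order of pressure. The mean of S100a6 was 16.62 at 145 kPa and 17.25 at 200 kPa, with 17.23 in H1. Its slope was 0.12 per 10 kPa on the log2 scale (confidence interval -0.069 to 0.30), and it ranged from 0.038 without M3, the rat with the lowest level, to 0.18 without M2. S100b had means of 7.40, 7.16 and 7.07 at the rising pressures, and a slope of -0.061 per 10 kPa (confidence interval -0.24 to 0.12), which ranged from -0.13 without XH3 to 0.0015 without XH1. The slope of S100a4 was -0.046 per 10 kPa, and it was -0.10 without M3 and -0.012 without XH1. The slope of S100a11 was 0.046 per 10 kPa, and 0.0033 without M3 and 0.076 without XH3. The level at 175 kPa is that of 1 rat, and differences between neighbouring pressures were not tested.

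The spread between rats differed widely among the genes. Among the sham control rats, the SD of S100a9, 2.77, was reached by only 2 of the 16873 probes well above background on all arrays, itself included, and that of S100a8, 1.15, by 407. Among the blast rats, where C1 plays no part, the SD of S100a9 was 0.93 and larger than that of 92.3% of these probes. S100a8, at 0.48, was above 64.1% and S100a6, at 0.49, above 65%. S100a11, at 0.25, was above 17.5% and S100a4, at 0.32, above 31%. S100b had an SD of 0.38 among the blast rats, above 44.2% of the probes. Among the sham control rats its SD was 0.79, above 91.1%.

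The members were also compared by the likeness of their patterns over the 8 rats, as a description with no test. The 15 pairs of S100 genes had Pearson correlations from -0.645 to 0.944, of which 10 were positive. The 5 negative pairs were those with S100b. Without C1 these stayed negative, and other pairs turned negative as well. They were S100a4 and S100a8 (r = -0.462), S100a4 and S100a9 (r = -0.115), and S100a8 and S100a11 (r = -0.106). By Pearson correlation over all 8 rats, S100a8 and S100a9 were the most alike, at r = 0.944 and Spearman's rho = 0.786. By rho, S100a6 and S100a11 were the most alike, at 0.952. Among 14221 probes of other accessions, well above background on all arrays and with a RefSeq or Ensembl accession, S100a8 ranked as number 14 by likeness to S100a9, and S100a9 as number 21 by likeness to S100a8. This likeness rested in large part on C1. Over the 7 rats without C1, r was 0.75 and rho 0.679, S100a8 ranked as number 1752 by likeness to S100a9, and S100a9 as number 2791 by likeness to S100a8. Without C1 and M2, the rats farthest from the median of S100a9, r was 0.741.

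S100a6 and S100a11 came next by Pearson correlation over all 8 rats, at r = 0.874, with rho = 0.952. Their likeness depended less on C1, with r = 0.847 and rho = 0.929 over the other 7 rats. Over those 7 rats they were the most alike pair by both measures. S100a6 ranked as number 125 by likeness to S100a11, and as number 150 without C1. In the other direction, S100a11 ranked as number 599 by likeness to S100a6, and as number 833 without C1. Without C1 and M3, the rats farthest from the median of either gene, r was 0.80. For S100a4 and S100a8, r was 0.52 and rho 0 over 8 rats, and r was -0.462 without C1 and 0.179 without C1 and H1, so that its sign changed with single rats.

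The probes with the patterns most like a member carry accessions without a gene name here. Nearest to S100a9 were NM_001109380 (r = 0.986) and NM_001007736 (r = 0.984), and nearest to S100a8 were NM_001012022 (r = 0.988) and NM_001129776 (r = 0.977). For S100a11 they were NM_001034927 (r = 0.992) and NM_001134796 (r = 0.977). Those of S100a4 were NM_138533 (r = 0.96) and NM_001108509 (r = 0.953), and those of S100a6 ENSRNOT00000010672 and NM_001134413, both at r = 0.982. S100b had NM_023987 (r = 0.965) and ENSRNOT00000003395 (r = 0.935). Of these 12 probes, 1 was again among the nearest when C1 was left out, and 7 were with the deposited log2 values.

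Of 30 further genes listed for the family (other S100 genes, receptors, binding partners and S100-fused genes of the epidermis), 2 could be paired with a probe, namely Tlr2 and Ahnak. The others were not analysed here. In limma, 0 of the 2 had an adjusted p under 0.05. Tlr2 (NM_198769) encodes a receptor of innate immunity. Its levels were 7.23, 7.02 and 7.23 in the sham control rats and 7.01, 6.57, 7.05, 6.76 and 6.95 in M2, M3, H1, XH1 and XH3, and its values across rats had r = 0.403 with S100a9 and -0.035 without C1. Ahnak (NM_001191951) encodes a very large scaffold protein under the plasma membrane that binds the S100A10 and annexin A2 complex. At its brightest probe it was at 16.57, 15.67 and 15.82 in the sham control rats and at 15.98, 14.79, 15.85, 15.53 and 15.49 in the blast rats in the same order. At this probe C1 was highest and M3 lowest, and r with S100a4 was 0.821 over 8 rats and 0.631 without C1. Ahnak ranked as number 209 by likeness to S100a4, and as number 694 without C1. Over 8 rats, r was 0.782 with S100a6, 0.764 with S100a11, 0.729 with S100a9, 0.612 with S100a8 and -0.559 with S100b. Without C1, r with S100a6 was 0.71, above that with S100a4. Of the other 3 probes of Ahnak, 1 had the same highest and lowest rat. They ranged from 11.10 (M2) to 11.87 (C3), from 9.68 (M2) to 10.60 (M3) and from 8.92 (M3) to 9.71 (C1).

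Among the markers of other cell types fixed for the follicle, Hbb for red cells, S100a8 and S100a9 for neutrophils and monocytes, S100b for Schwann cells and melanocytes, and S100a4 for fibroblasts could be paired with a probe. Those of keratinocytes, and the other markers of white cells, were not analysed here. Hbb (NM_033234), the beta chain of haemoglobin, was at 10.21, 13.96 and 11.64 in C1, C2 and C3, and at 17.42, 13.34, 15.37, 13.31 and 14.43 in M2, M3, H1, XH1 and XH3. C1, the rat with the highest S100a8 and S100a9, thus had the lowest Hbb. The dimmer probe of Hbb ranged from 4.88 in C1 to 12.48 in M2. Between the brightest probe of Hbb and S100a9, r was -0.417 over 8 rats, 0.485 without C1 and -0.031 without C1 and M2, so that its sign changed with single rats. For S100a8 it was -0.575 over 8 rats, -0.041 without C1 and 0.302 without C1 and H1. The log2 fold change of Hbb in blast rats was 2.84, with a confidence interval from 0.11 to 5.57 (two-sided exact permutation p = 0.0893), and its limma-adjusted p was 0.9999. Without C1, its lowest rat, it was 1.97 (standard error 1.26, two-sided exact permutation p = 0.286). The part of blood cells in the S100 levels was not tested.

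**Figure D3:**
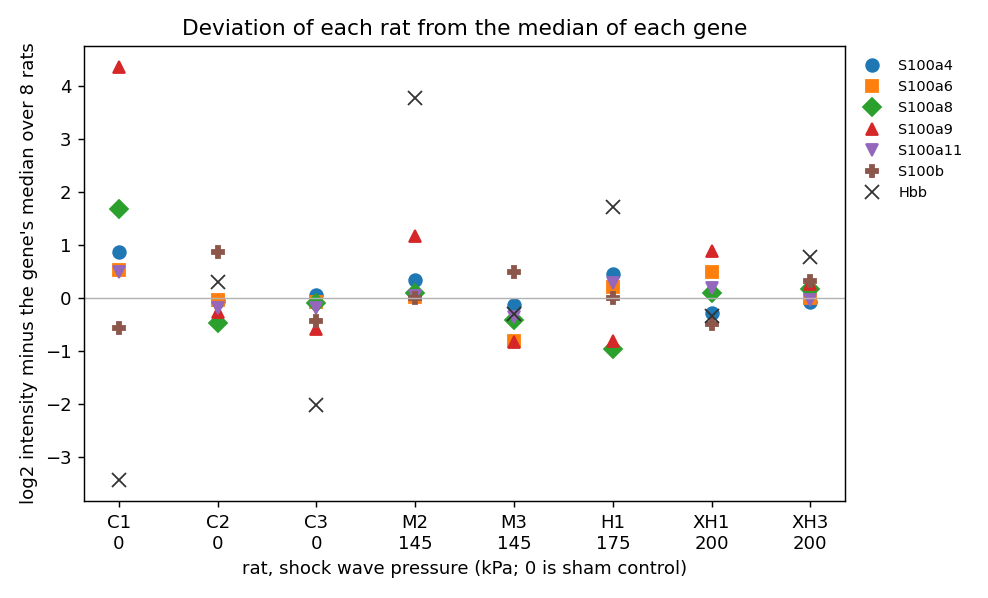
Log2 intensity of each S100 gene and of Hbb in each rat minus the median of that gene over the 8 rats (vertical axis), by rat and shock wave pressure in kPa, where 0 is sham control (horizontal axis). C1 lies far above the median for S100a9 and S100a8 and far below it for Hbb, while M2 lies farthest above the median for Hbb.

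The rows of the slide gave different estimates for the calprotectin genes. Row 1 held C1, C2, M2 and H1, and the mean of its 2 blast rats minus that of its 2 sham control rats was -1.88 for S100a9 and -1.04 for S100a8 on the log2 scale. In row 2, with C3 as the only sham control rat and M3, XH1 and XH3 as the 3 blast rats, the differences were 0.68 and 0.04. C1 lay in row 1. For the other S100 genes the differences within a row lay between -0.22 and 0.55.

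In the gene table of a related rat, assembly Rrattus_CSIRO_v1, S100a8 and S100a9 are neighbours with 0 protein-coding genes between them. All 4 S100A members found there, S100a4, S100a8, S100a9 and S100a11, lie on 1 chromosome, and S100b lies on another.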

How the data were processed

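Gene expression was measured on single-dye Agilent arrays, 1 for each of 3 sham control and 5 blast rats. The intensity of a spot was computed by the authors in Agilent Feature Extraction (10.7.1.1 in the file headers), which corrects for background, and deposited log2 values of the same arrays after quantile normalization. Here, control and outlier spots were left out, the log2 intensities of a probe's spots were averaged, quantile normalization was applied over the arrays, and values below an intensity of 3 were raised to 3 before taking log2. Blast was compared with sham control, and a slope on pressure was fitted among the blast rats, by lmFit and eBayes of limma 3.58.1 (R 4.3.3), with Benjamini-Hochberg adjustment over all probes. Permutation tests were two-sided and exact over the 56 ways to part 8 rats into 3 and 5, with a smallest p of 0.0179, or the 21 ways without C1, with a smallest p of 0.0476. The steps were tested on simulated data.

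A gene was represented by its probe with the highest mean, and its other probes were given by their range. The members and lists were chosen with earlier results of these data known. The named genes were the 6 members, Tlr2, Ahnak and Hbb, and for each member the 2 most similar probes. Symbols came from the listed accessions and the primers listed by the study, while 0 accessions of the array matched the gene list of the assembly Rrattus_CSIRO_v1. The number of arrays limits the precision. All 8 lay on 1 slide and were scanned in 1 run, so these could not differ between groups. The alternatives covered normalization, lower limit, background correction, the filter on dim probes, outlier spots, test, blocks, deposited values, choice of probe and each rat left out. Chosen after the data were seen were quantile normalization of the log2 values and the likeness of patterns without C1.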

Additional observations from a re-analysis of the deposited data

How the results depend on the processing

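Under the alternatives run, with each rat left out included, the number of S100 genes at an unadjusted p under 0.05 was 0 of 6, and 0 after adjustment, for blast against sham control and for the trend with pressure. Over all probes, the unadjusted count for blast against sham control ran from 412 of 19995 (filter on dim probes) to 1671 of 30366 (array quality weights). After adjustment, 2 of 30351 probes passed without C1 and 3 of 30347 without C3, and 0 in the other settings. Whether the number in the sample titles pairs rats was not known. The deviations of same-numbered sham control and blast rats correlated from -0.30 to 0.32 over 5 pairs. Those of differently numbered rats correlated from -0.41 to 0.38 over 10 pairs. So few pairs with overlapping ranges cannot decide whether the rats were paired. With this number as a replicate block the count of S100 genes was also 0, with estimates from -1.08 (S100a9) to 0.19 (S100b).

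The estimate of S100a11, near 0, changed sign with 75th percentile scaling (0.042), normexp (0.0095), the uncorrected signal (0.0095), a block for the row (0.057) or the side (0.045) of the slide and the deposited values (0.014). Array quality weights gave 0.11 for S100a11, 0.04 for S100a6, 0.10 for S100a9, -0.14 for S100a8 and 0.25 for S100b. A block for the row gave -0.099 for S100a4, and a block for the side -0.58 for S100a9 and -0.37 for S100a8. S100b was at -0.11 when blocked by the side of the slide and at -0.42 for its probe with the lowest p, which is not well above background. With each rat left out, the estimates ranged from -0.40 to 0.059 (S100a4), -0.29 to 0.03 or 0.033 (S100a6, without C1 or M3), -1 to 0.078 (S100a8), -1.92 to 0.55 (S100a9), -0.13 to 0.21 (S100a11) and -0.15 to 0.57 (S100b). Slopes per 10 kPa turned over all 8 rats to -0.0031 (S100a6), -0.029 (S100a8), -0.054 (S100a9) and 0.0029 (S100b). With each blast rat left out they ranged from -0.066 to 0.27 (S100a9) and from -0.13 to 0.0015 (S100b). Of the 12 most similar probes, 7 were shared with the deposited values and 1 without C1. For settings other than omitted rats, the cause was not tested. The dim second probe of S100b limits that gene to 1 probe.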
